A study of Mus musculus with 2 samples.

Results

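The type I interferon antiviral genes followed here were 35 genes, named by symbol, of the 32285 genes listed in mouse tumours profiled cell by cell with droplet RNA sequencing. All 35 symbols matched exactly 1 listed gene, and their summed molecule counts are called the module. The samples were tumours of a Control group and of a Motolimod group, with 1 library each. Motolimod is a small-molecule agonist of TLR8, an endosomal receptor for single-stranded RNA, and the series asks how such agonists change the immune cells of a tumour. Per the labels, tumours came from 5 mice per group and were enriched for CD45-positive immune cells to over 95% purity. Neither tumour model nor dose is stated in the labels, nor how the 5 mice were combined into 1 library. With 1 library per group no difference between groups can be set against a spread between replicates, so no p-value is given, and every interval covers counting error only.

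Type I interferons are secreted proteins that act through a receptor of paired chains, IFNAR1 and IFNAR2. The receptor's kinases phosphorylate STAT2, which acts together with IRF9 at interferon-stimulated response elements upstream of many genes. Many of the proteins made then sense foreign RNA or DNA, block translation of viral RNA, degrade RNA or trap virions, and some raise or limit the response itself. In tumours, macrophages, monocytes, dendritic cells and neutrophils are all able to carry this programme, and it is studied as a link between innate sensing and T cell priming.

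Promoter sequences were read because the response element is the feature these genes are known for, and the group was chosen by name without them. The RefSeq promoter table (GRCm38.p6, 250 bases before to 50 after each start) held 28 of the 35 members. The core of the element (GAAA, any 2 bases, GAAA), searched on both strands and counted once per gene, was in 16 of the 28 (57.1%), against 1079 of all 27025 genes in the table (3.99%). The palindrome TTCNNNGAA was in 5 of the 28 (17.9%), against 9.55% of all genes. Among 33 promoters of these 28 genes, 17 held the core, and the first base of the match nearest to the start lay at a median of 66 bases before it. Below are the 200 bases before the start of 7 members, 5′ to 3′ on the gene's strand, with matches to the core, or to its reverse complement (TTTC, any 2 bases, TTTC), in capitals. Isg15 and Rsad2 are shown as the genes whose share of the module is followed below, Ddx60 and Oas1a as genes with a match close to the start, and Ifit3 and Ifit3b as near-copies. Irf7 has no match in this window.
Isg15, chr4:156200819-156201018, minus strand: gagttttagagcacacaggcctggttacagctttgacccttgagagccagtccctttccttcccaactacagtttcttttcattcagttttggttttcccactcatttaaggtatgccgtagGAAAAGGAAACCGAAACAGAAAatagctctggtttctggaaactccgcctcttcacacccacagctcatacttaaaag
Rsad2, chr12:26456453-26456652, minus strand: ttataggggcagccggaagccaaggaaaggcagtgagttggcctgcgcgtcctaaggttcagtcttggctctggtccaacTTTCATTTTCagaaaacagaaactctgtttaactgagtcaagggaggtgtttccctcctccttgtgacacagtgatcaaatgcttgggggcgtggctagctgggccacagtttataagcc
Ddx60, chr8:61927887-61928086, plus strand: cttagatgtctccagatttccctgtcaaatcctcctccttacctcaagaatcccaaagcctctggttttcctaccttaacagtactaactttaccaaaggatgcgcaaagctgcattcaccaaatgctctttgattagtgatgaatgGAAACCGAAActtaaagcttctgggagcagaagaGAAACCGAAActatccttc
Oas1a, chr5:120907526-120907725, minus strand: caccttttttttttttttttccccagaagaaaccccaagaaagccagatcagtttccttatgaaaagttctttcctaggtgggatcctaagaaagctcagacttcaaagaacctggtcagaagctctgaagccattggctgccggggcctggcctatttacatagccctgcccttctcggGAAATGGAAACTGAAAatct
Ifit3, chr19:34583329-34583528, plus strand: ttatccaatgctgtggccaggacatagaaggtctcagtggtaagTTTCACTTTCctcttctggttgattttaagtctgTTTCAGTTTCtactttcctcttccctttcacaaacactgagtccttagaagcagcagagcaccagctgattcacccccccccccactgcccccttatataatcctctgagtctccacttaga
Ifit3b, chr19:34607757-34607956, plus strand: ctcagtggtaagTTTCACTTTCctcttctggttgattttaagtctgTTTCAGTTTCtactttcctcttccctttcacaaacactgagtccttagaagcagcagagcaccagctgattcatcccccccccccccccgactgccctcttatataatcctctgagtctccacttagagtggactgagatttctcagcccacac
Irf7, chr7:141266425-141266624, minus strand: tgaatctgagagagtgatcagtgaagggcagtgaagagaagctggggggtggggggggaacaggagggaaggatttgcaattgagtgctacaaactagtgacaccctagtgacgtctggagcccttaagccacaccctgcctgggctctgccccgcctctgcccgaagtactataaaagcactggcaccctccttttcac
In Isg15, 3 overlapping matches formed a single run of capitals. Ifit3 and Ifit3b each had 2 separate matches, and their printed stretches shared an identical run of 119 bases. Reads from such near-copies could be split or lost in counting, so Ifit3 against Ifit3b, Oas1a against Oas1g and the Ifi200 genes are uncertain as single genes. No match was found for Cmpk2, Herc6, Ifi209, Ifi35, Ifi44, Ifit2, Irf7, Irf9, Isg20, Oasl1, Oasl2 and Xaf1, and Usp18, Oas2, Dhx58, Zbp1, Ifi204, Rtp4 and Parp14 were not part of this search.

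The 35 genes lay on 14 chromosomes in the mm10 annotation (GENCODE vM21), and 16 of them in 5 clusters of neighbours. Ifit2, Ifit3, Ifit3b and Ifit1 span chr19:34550694-34650009. The Oas genes Oas2, Oas3, Oas1g and Oas1a span chr5:120730333-120907521, and Oasl2 and Oasl1 span chr5:114896936-114937915. Ifi213, Ifi209, Ifi204 and Ifi211 span chr1:173566283-173913046. Rsad2 and Cmpk2, which lie on opposite strands, span chr12:26442746-26479837.

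The Control library held 127609378 molecule counts (UMIs, unique molecular identifiers) over 8099 barcodes, and the Motolimod library 62057685 over 10037. Requiring 300 genes and 800 UMIs per barcode, with no more than 10% of UMIs mitochondrial, left 7484 and 9314 barcodes, with medians of 14055 and 3742.5 UMIs. Of the barcode sequences, 113 occurred in both libraries (1.40% of Control and 1.13% of Motolimod barcodes). Cell types were taken as gates on marker genes, and 6 gates with at least 50 barcodes in each library were compared. They held, in Control and Motolimod, 3931 and 3874 macrophages, 508 and 393 monocytes, 577 and 2887 neutrophils, 390 and 473 T cells, 266 and 90 dendritic cells and 694 and 68 keratin-positive epithelial cells. Markers of more than 1 lineage were found in 489 and 583 barcodes, which were set aside. Leading genes went with the gate names (C1qa, C1qc and C1qb for macrophages, S100a8 and S100a9 for neutrophils, Cd3g and Cd3e for T cells, Ccr7 and Ccl22 for dendritic cells, Krt8 and Krt18 for epithelial cells), but Ighg2b and Igkc also stood among the top 10 of the monocyte gate, beside Ly6c2 and Vcan. RNA of other cells was present in every gate. The 3 C1q genes, products of macrophages, summed to 13324 and 9060 UMIs per 1000000 UMIs (CPM) in the macrophage gate, and to 201 and 145 CPM in the neutrophil gate and 254 and 314 CPM in the T cell gate, and its part in the module levels was not tested.

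Every gate held module UMIs in both libraries, with the highest level in neutrophils and the lowest in epithelial cells. In the neutrophil gate it stood at 10054 CPM in Control and 10493 in Motolimod. The monocyte gate followed with 7616 and 7403 CPM, the macrophage gate with 3952 and 4123, the dendritic cell gate with 2619 and 3347, the T cell gate with 1960 and 2233, and the epithelial gate with 1331 and 910. The order of the 6 gates was the same in both libraries. Neighbouring gates in this order were separated beyond their counting intervals (epithelial cells 1318 to 1344 and T cells 1917 to 2004 in Control, for example). Of the 35 members, 20 had their highest CPM in the neutrophil gate and 14 in the monocyte gate, in each library. Members differed widely in how much they gave to the sum. Over all kept barcodes, Isg15, a ubiquitin-like protein, gave 21.5% of the module's UMIs, Bst2 (tetherin, which holds budding virions at the membrane) 16.2% and Irf7, a factor that amplifies interferon production, 8.73%.

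**Figure D1:**
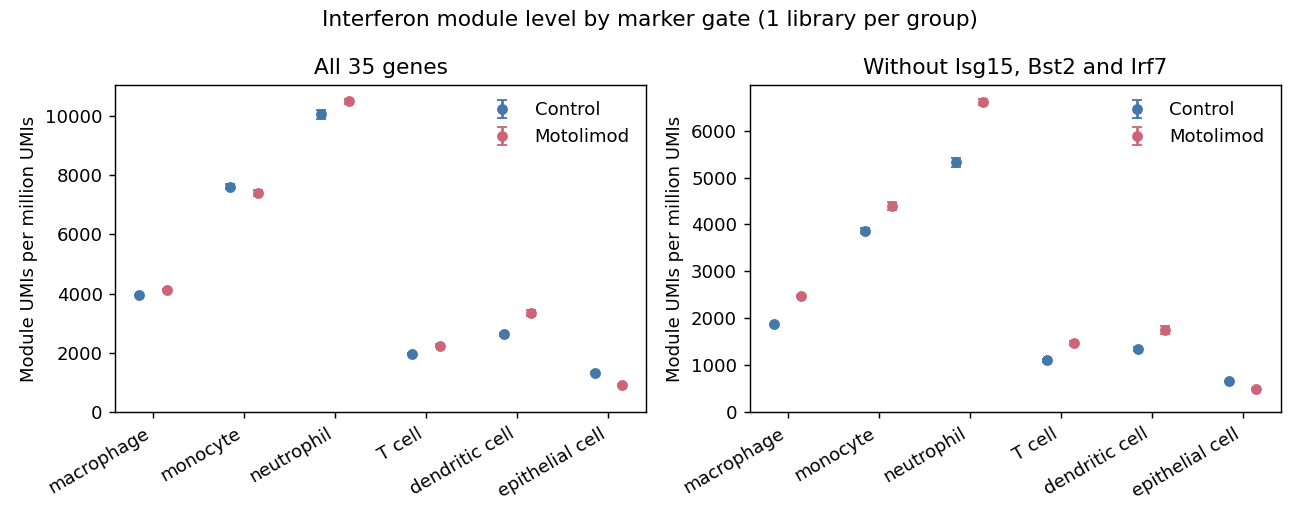
Module CPM of each gate, for all 35 genes (left) and without the 3 members with the most UMIs (right). Points are the 1 library of each group and bars are exact Poisson 95% intervals, often smaller than the point. The gates keep their order, from 10054 CPM in Control neutrophils to 1331 in Control epithelial cells, and without Isg15, Bst2 and Irf7 the Motolimod point is above the Control point in 5 of the 6 gates.

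The ratio of the sum was within 1.05-fold in macrophages, monocytes and neutrophils and further from 1 in the other gates. The ratio of Motolimod to Control was 1.04 (95% interval 1.04 to 1.05) for macrophages, 0.972 (0.955 to 0.989) for monocytes, 1.04 (1.03 to 1.06) for neutrophils, 1.14 (1.10 to 1.18) for T cells, 1.28 (1.23 to 1.33) for dendritic cells and 0.684 (0.659 to 0.709) for epithelial cells. By the mean over barcodes the macrophage ratio was 1.21. Without Isg15, Bst2 and Irf7, the ratios of the remaining 32 genes were 1.32, 1.14, 1.24, 1.33, 1.31 and 0.754 in the same order. A member was called higher or lower where it differed at least 1.5-fold with at least 20 UMIs over both libraries of the gate. By that rule 12 of 35 members were higher and 0 lower in macrophages, where 13.2% of all 13392 genes tested were higher and 10.5% lower. The members' median log2 ratio was 0.41 there, against 0.05 for all genes. Fewer cells of a responding kind and less RNA per cell cannot be told apart in such sums.

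In the macrophage gate the 3 most abundant members were not among the 12 called higher. Isg15 stood at 822.6 CPM in Control and 610.8 in Motolimod (ratio 0.742, 0.730 to 0.755), Irf7 at 467 and 352 (0.754) and Bst2 at 791 and 688 (0.869), all below 1 and inside the 1.5-fold limit. Zbp1, a sensor of Z-form nucleic acid, was nearly level at 197 and 205 CPM. Rtp4 (165 and 155 CPM, ratio 0.936) and Ifi35 (107 and 87.7 CPM, ratio 0.823) also lay within the limit. At the other end, Ifi44 had 8.64 CPM in Control and 24.0 in Motolimod, a ratio of 2.78 (2.49 to 3.10). Ddx60, a helicase that aids RNA sensing, had 11.4 and 27.3 CPM (2.40). Oas3 and Oas2, synthetases of the 2-5A messenger that switches on RNase L, had ratios of 2.25 and 2.12. Ifi204, of the DNA-binding IFI200 family, had 6490 and 6607 UMIs, a ratio of 2.03 (1.97 to 2.11). By role, 3 of 4 IFI200 genes and 2 of 4 Ifit genes, whose products bind viral RNA ends, were higher. The group of OAS genes and Isg20, an RNA exonuclease, had 2 of 7 higher, the sensors 1 of 5 and the other effectors 4 of 9. Of the ISG15 conjugation genes (Isg15, Usp18 and Herc6) 0 of 3 were called, and likewise 0 of 3 transcription factors (Irf7, Irf9 and Stat2).

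Monocytes, the blood-derived precursors of many tumour macrophages, had 9 of 35 members higher and 1 lower, beside 12.9% and 6.66% of all genes. The lower member was Irf7, at 939 CPM in Control and 594 in Motolimod (0.632, 0.597 to 0.670). Ifi44 was at 10.7 and 41.0 CPM (3.85, 2.69 to 5.57), the largest ratio of a member in this gate. Ifit1, Ifit3b, Oas3, Ddx60, Ifi204, Ifi211, Rsad2 and Cmpk2 were also higher, with ratios of 1.56 to 2.06.

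**Figure D2:**
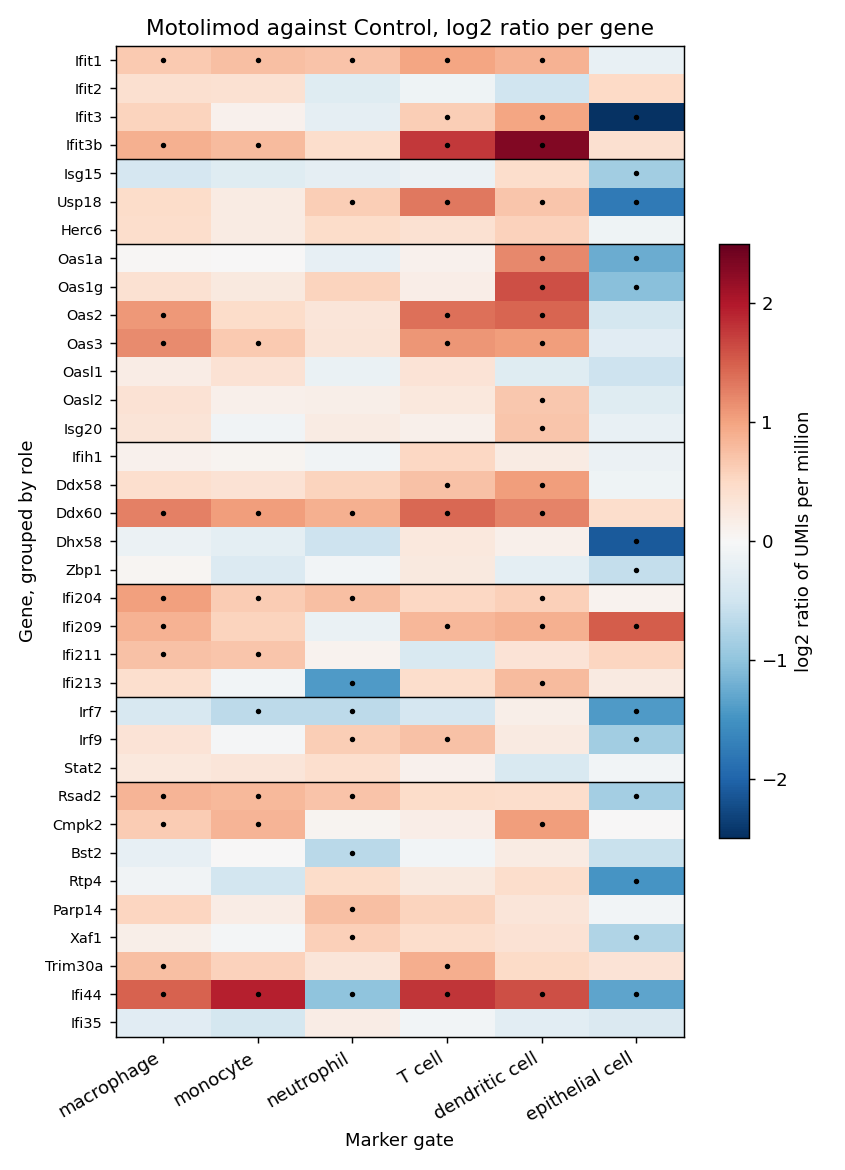
Log2 ratio of CPM, Motolimod over Control, for each of the 35 members (rows, grouped by role with lines between groups) in 6 gates (columns), 1 library per group. Black points mark members past 1.5-fold with at least 20 UMIs. Ifit1 and Ddx60 are marked higher in 5 gates each, Irf7 is marked lower in 3, and the epithelial column differs from the rest.

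Neutrophils, short-lived granulocytes that were 7.71% of kept Control and 31.0% of kept Motolimod barcodes, had 8 members higher and 4 lower. Over all genes of that gate 17.7% were higher and 27.4% lower, and the median of all genes stood 0.16 below 0 on the log2 scale over well-counted genes, so each neutrophil ratio is read beside that shift. Scaled by that median, 13 members were higher and 2 lower, and under a stricter filter on barcodes (2000 UMIs, 1000 genes) 2 were higher. The stricter filter left 139 of 577 Control and 563 of 2887 Motolimod neutrophils. For both settings the share of all genes is not given. Isg15 was at 3935 CPM in Control and 3385 in Motolimod (0.860, 0.838 to 0.883). Rsad2 (viperin, which makes a chain-terminating nucleotide) was at 568 and 926 CPM, a ratio of 1.63 (1.53 to 1.74). Ddx60 (1.84), Ifi204 (1.69), Parp14 (1.68) and Ifit1 (1.64) were higher as well. Rtp4 (623 and 853 CPM), Isg20 (577 and 668), Oasl2 (415 and 458) and Zbp1 (427 and 407) were within the limit. The 4 lower members were Ifi213 (68.3 and 25.4 CPM, ratio 0.373), Ifi44 (0.501, 0.258 to 1.01, from 15 and 28 UMIs), Bst2 (341 and 213 CPM, 0.625) and Irf7 (456 and 288 CPM, 0.633). Macrophage markers summed to 980 CPM in the Control and 453 in the Motolimod neutrophil gate, and their part in the lower members was not tested.

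In T cells 12 members were higher and 0 lower, with 15.2% of all genes higher and 8.66% lower. With the gate threshold doubled 21 were higher, within 4000 to 16000 UMIs 20 were, and thinning to 1000 UMIs brought 1 lower. The shares of all genes called under these settings are not given, so these counts are not set against a background. The largest ratios came from few UMIs. Ifi44 had 6 UMIs in Control and 17 in Motolimod (ratio 3.44, 1.30 to 10.7, and 0.827 after thinning to 1000 UMIs per barcode), Ifit3b 15 and 42 (3.40), Ddx60 21 and 47 (2.72) and Oas2 14 and 30 (2.61). Usp18, the protease that removes ISG15 and dampens the receptor, was at 11.3 and 28.1 CPM (2.49, 1.72 to 3.63). The members with the most UMIs were within the limit, with Isg15 at 387 and 351 CPM, Bst2 at 301 and 286, Irf7 at 165 and 123, Zbp1 at 142 and 169, Isg20 at 98.9 and 108 and Ifi35 at 93.6 and 88.7. Ifi211 (0.772) and Ifit2 (0.934) had ratios below 1.

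Dendritic cells, which present antigen to T cells, had 17 of 35 members higher and 0 lower, beside 12.1% and 10.0% of all genes. Thinned to 1000 UMIs per barcode, 5 were higher and 1 lower, with no share of all genes given for that setting. The module ratio of 1.28 was 0.789 in barcodes of 16000 to 32000 UMIs. Of the group of OAS genes and the RNA exonuclease Isg20, 6 of 7 were higher, with Oas1g at 6.99 and 21.2 CPM (3.04), Oas2 at 8.39 and 22.9 (2.73) and Oas1a at 47.5 and 110 (2.31). Ifit3b (11 and 18 UMIs, ratio 4.97, 2.22 to 11.7) and Ifi44 (19 UMIs each, 3.04) had wide intervals. Isg15, Irf7 and Bst2 had ratios above 1 here (1.36, 1.11 and 1.16), within the limit. Whether these ratios differ between gates was not tested. Trim30a was at 74.4 and 104 CPM (1.39), and Stat2 (0.773), Oasl1 (0.815), Ifi35 (0.829), Zbp1 (0.844) and Ifit2 (0.706) had ratios below 1 within the limit. The kinds of dendritic cell did not share one ratio. Type 1 cells (70 and 16 barcodes) had a module ratio of 0.897, type 2 cells (81 and 43) 0.927, and migratory cells (115 and 31) stood at 2462 CPM in Control and 5308 in Motolimod, a ratio of 2.16 (2.02 to 2.30). In the migratory cells 23 of 29 members tested were higher and 0 lower, beside 19.1% and 19.2% of all genes.

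Epithelial cells, which could hold the tumour cells, had 1 member higher and 13 lower, with 6.31% and 7.75% of all genes. They were 9.27% of kept Control and 0.730% of kept Motolimod barcodes, although the labels give over 95% purity for both groups. The Motolimod side of this gate rests on 68 barcodes. Thinned to 1000 UMIs per barcode 3 members were lower, and within 4000 to 16000 UMIs 3 were higher and 2 lower. That window held only 39 Control and 3 Motolimod barcodes of this gate. No share of all genes is given for either setting, so these counts are not set against a background. Isg15 was at 217 and 119 CPM (0.549, 0.496 to 0.606), Irf7 at 51.2 and 19.1 (0.373), Rtp4 at 35.1 and 12.6 (0.358), Usp18 at 14.6 and 4.28 (0.293) and Dhx58 at 9.75 and 2.28 (0.234). The single higher member was Ifi209, from 41 and 14 UMIs (2.85, 1.43 to 5.34).

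Module counts per barcode were compared after each barcode had been thinned to 1000 UMIs, so that all had the same number of UMIs. The barcodes of the libraries still differed in their own depth before thinning. Thinning left out 29 Control and 85 Motolimod macrophages and 39 and 147 neutrophils with fewer UMIs. If all barcodes of a gate shared 1 module level, the variance would be close to the mean. In macrophages the mean was 4.29 UMIs in Control and 5.17 in Motolimod, and the variance was 3.48 and 4.64 times the mean. The median barcode held 3 and 4 module UMIs, and 9 and 11 at the 90th percentile. A count of 10 or more was held by 307 of 3902 Control macrophages (7.87%) and 533 of 3789 Motolimod macrophages (14.1%). Those with 0 were 8.12% and 8.18%. Intervals on these shares treat barcodes of 1 library as independent and cover counting error only, so they cannot decide a difference between groups. By the barcode's own depth, the gap at the 90th percentile was as wide in the shallowest bin and narrower in the deeper ones. The 90th percentiles were 9 and 11 module UMIs in barcodes of 1000 to 2000 UMIs, 11 and 12 at 2000 to 4000, 13 and 13 at 4000 to 8000 and 9 and 10 at 8000 to 16000. The variance over the mean was 2.17 and 4.06, 3.48 and 4.28, 4.40 and 4.61, and 3.65 and 4.34 in the same bins. The shares with 20 or more had overlapping intervals in each of these bins, at 2.05% and 3.53% between 4000 and 8000 UMIs, for example. Deeper barcodes are not in these bins, namely 1731 Control and 506 Motolimod macrophages of 16000 to 32000 UMIs and 218 and 30 above that. Without thinning, the 90th percentile was 5.07 times the 10th in Control macrophages and 8.72 times in Motolimod.

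Neutrophils had the largest variance over mean of the 6 gates in both libraries, a measure that grows with the mean. By the share of module UMIs in the highest 10% of barcodes, Control T cells stood higher, at 40.3% against 32.2% in Control neutrophils. The mean was alike, 10.7 UMIs in Control and 10.8 in Motolimod, but the median barcode held 8 and 6 and the 99th percentile was 46.3 and 74. The variance was 9.95 times the mean in Control and 17.5 times in Motolimod. Thinned to 2000 UMIs instead, the variance was 17.9 and 32.1 times the mean. Under the stricter filter of 2000 UMIs, 1000 genes and at most 5% mitochondrial UMIs per barcode, thinned to 1000 UMIs, it was 9.20 and 10.2 times, and the part of each criterion in this was not tested. That filter kept only 139 of 577 Control and 563 of 2887 Motolimod neutrophils. The share of barcodes with 10 or more was 40.3% (36.2 to 44.6) in Control and 35.9% (34.1 to 37.7) in Motolimod, intervals that overlap, and 17.3% and 21.9% without Isg15, Bst2 and Irf7. The highest 10% of Motolimod neutrophil barcodes held 40.5% of that gate's module UMIs. The highest barcode had 119 module UMIs of its 1000 in Motolimod and 80 in Control. By the barcode's own depth, the variance over the mean was 10.8 in Control and 18.3 in Motolimod between 1000 and 2000 UMIs, 8.66 and 18.5 between 2000 and 4000, and 6.57 and 10.5 between 4000 and 8000. Between 8000 and 16000 UMIs the order turned, at 18.2 over 41 Control and 5.55 over 51 Motolimod barcodes. At 40 or more module UMIs stood 62 of 1252 Motolimod and 6 of 233 Control neutrophils of 1000 to 2000 UMIs (4.95%, 3.82 to 6.30, and 2.58%, 0.951 to 5.52). Of 2000 to 4000 UMIs it was 53 of 1220 and 2 of 179 (4.34%, 3.27 to 5.64, and 1.12%, 0.136 to 3.98). Of 8000 to 16000 UMIs it was 0 of 51 Motolimod (up to 6.98%) and 2 of 41 Control neutrophils (4.88%, 0.596 to 16.5). The intervals of the libraries overlapped in each of these 3 bins.

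Monocytes had means of 7.92 and 8.17 UMIs, medians of 7 and 6, and a variance of 4.96 and 7.46 times the mean. The share with 0 module UMIs was 2.57% (1.37 to 4.35) in Control and 7.18% (4.82 to 10.2) in Motolimod, and the share with 20 or more was 5.14% and 7.95%, with overlapping intervals. T cells had a median of 1 in both libraries, with 27.9% and 27.6% at 0 and a variance of 3.81 and 4.60 times the mean. Dendritic cells held 10 or more in 3.79% (1.83 to 6.86) and 12.2% (6.26 to 20.8) of barcodes. In epithelial cells the mean was 1.38 and 0.985, 4 of 694 Control barcodes held 10 or more and none of 68 Motolimod barcodes did, which allows a share of up to 5.28%.

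**Figure D3:**
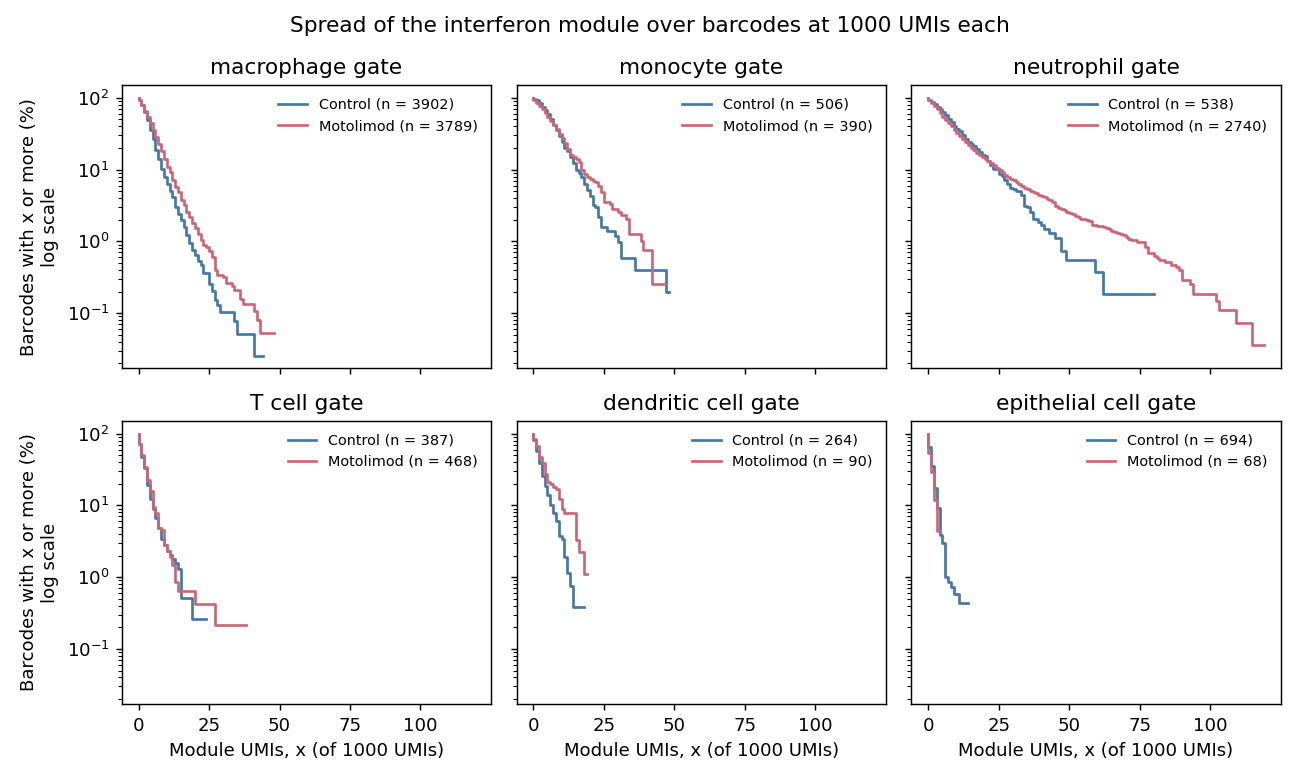
Percent of barcodes (log scale) that hold at least x module UMIs after thinning to 1000 UMIs, by gate, with 1 library per group. The neutrophil curves cross, with Control above Motolimod at 10 UMIs (40.3% and 35.9%) and Motolimod reaching 119 UMIs where Control ends at 80. In macrophages 7.87% of Control and 14.1% of Motolimod barcodes reach 10 UMIs.

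The makeup of the module changed with its level in a barcode, which the sums do not show. Barcodes of a gate were binned by their thinned module count, and the same UMIs set the bins, so this is a description. In macrophages with 0 thinned module UMIs, Bst2 gave 28.7% of all their module UMIs in Control and 26.1% in Motolimod, and in those with 20 or more it gave 7.25% and 7.94%. Isg15 went the other way, from 12.6% to 36.4% in Control and from 8.61% to 25.1% in Motolimod. The 4 Ifit genes went from 1.14% to 10.7% and from 1.40% to 10.2%, and Rsad2 from 0.796% to 8.41% and from 1.63% to 8.51%. Neutrophils showed the same order, with Isg15 from 13.2% to 44.9% in Control and from 22.3% to 36.6% in Motolimod, and the Ifit genes from 1.65% to 10.8% and from 0.405% to 11.8%. The barcodes of these bins differed in other ways too. Monocyte markers were at 447 CPM in Control macrophages of the lowest bin and 2201 in the highest, and at 393 and 6816 CPM in Motolimod. Cycling markers were at 715 CPM in the lowest and 7.64 CPM in the highest bin of Motolimod macrophages, and the median depth of those bins was 11902.5 and 5366 UMIs. Neutrophil markers were at 34368 and 74262 CPM in Control and 46552 and 92023 CPM in Motolimod neutrophils of the lowest and highest bins. The part of these differences in the module counts was not tested.

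**Figure D4:**
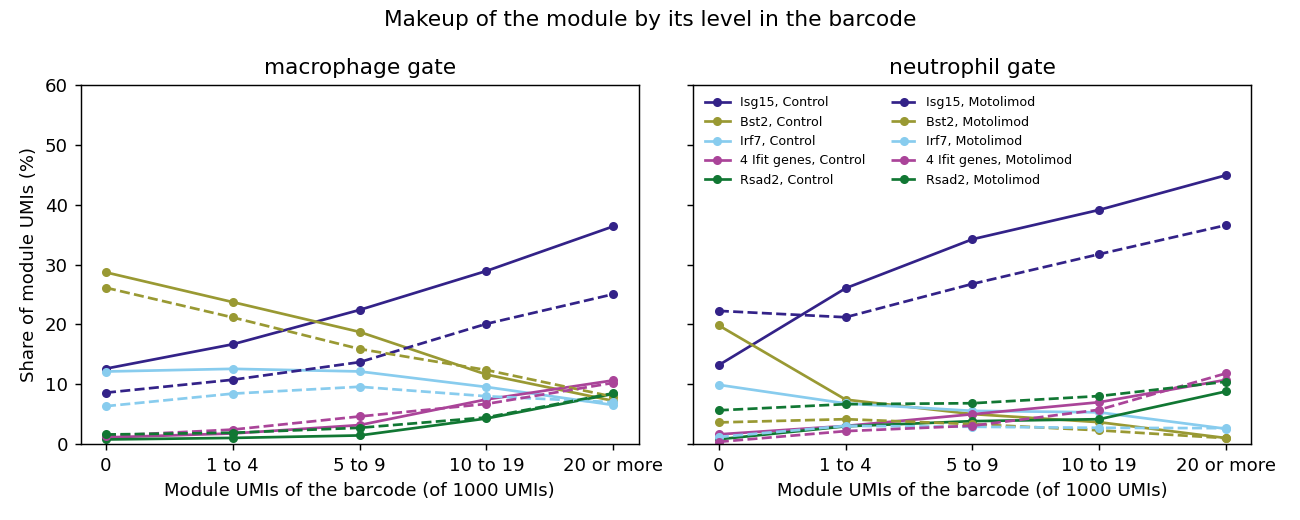
Share of module UMIs (%) given by Isg15, Bst2, Irf7, the 4 Ifit genes and Rsad2 in barcodes binned by their module count at 1000 UMIs, for the macrophage and neutrophil gates. Solid lines are Control, dashed lines Motolimod, 1 library each, with no error drawn. Isg15 and the Ifit genes take a larger share and Bst2 a smaller share toward the highest bin in both gates.

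Counts of the role groups were compared across barcodes. Over the 21 pairs of the 7 role groups, the median correlation across barcodes at 1000 UMIs was 0.185 in Control and 0.268 in Motolimod macrophages (3902 and 3789 barcodes), 0.248 and 0.360 in monocytes, and 0.268 and 0.398 in neutrophils (538 and 2740). It was 0.203 and 0.294 in T cells, 0.175 and 0.278 in dendritic cells and 0.0836 and 0.0543 in epithelial cells. These values describe barcodes that share a library and a fixed depth, and at counts this low a correlation is bounded by sampling. Among single members, Isg15 went most closely with the sum of the others, at 0.633 in Control and 0.765 in Motolimod neutrophils. For Bst2 the values in that gate were 0.0475 and 0.133. Isg15 also had the largest variance over mean of a single member, 6.56 and 9.55 in neutrophils and 3.09 and 2.76 in macrophages, where the median member had 1.07 and 1.09.

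The direction of the module ratio differed with the depth of the barcode in the 5 immune gates. Between 800 and 2000 UMIs the module was at 4330 CPM in Control and 5538 in Motolimod macrophages (1.28, 1.18 to 1.38). Between 4000 and 8000 UMIs it was at 5643 and 6349 CPM (1.13), and between 8000 and 16000 at 4171 and 4188 (1.00). Between 16000 and 32000 UMIs it was at 3818 CPM over 1731 Control barcodes and 2433 over 506 Motolimod barcodes (0.637, 0.629 to 0.646). In neutrophils the ratio went from 1.01 and 1.05 in the 2 shallowest bins to 0.935 and 0.778 in the next 2. The T cell gate had 1.47, 1.11, 1.09 and 1.55 in its 4 bins up to 16000 UMIs and 0.786 between 16000 and 32000 UMIs (66 and 28 barcodes). In dendritic cells it was 1.44 (1.37 to 1.51) between 8000 and 16000 UMIs (102 and 50 barcodes) and 0.789 (0.733 to 0.848) between 16000 and 32000 UMIs (84 and 23 barcodes). In monocytes it was 1.05 and 1.06 in the 2 bins from 2000 to 8000 UMIs and 0.910 between 8000 and 16000.

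**Figure D5:**
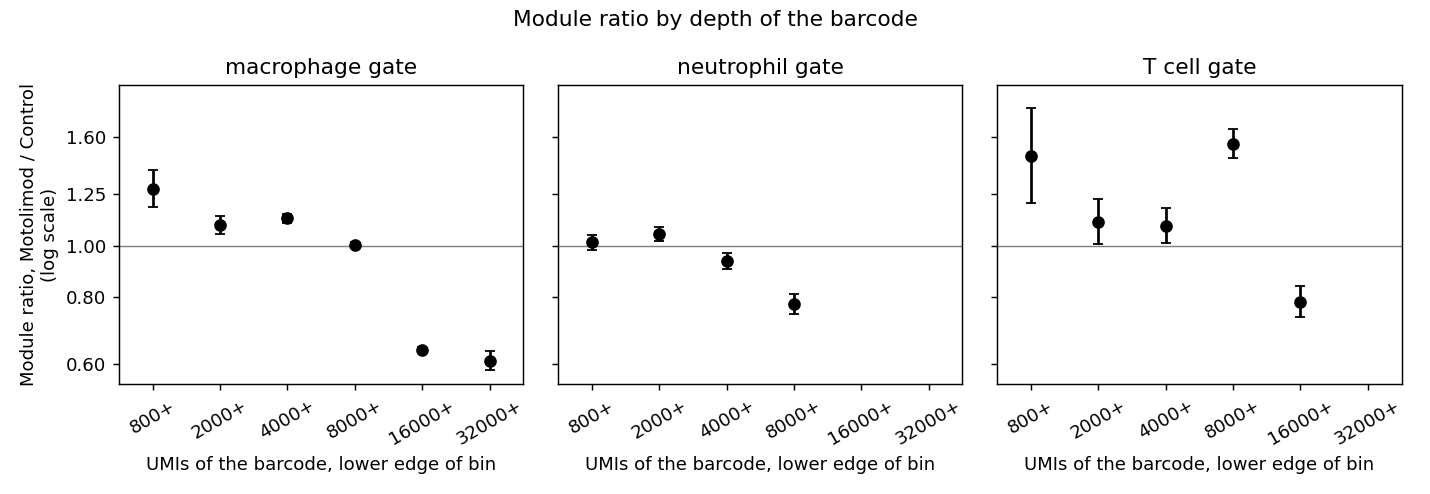
Ratio of the module's CPM, Motolimod over Control (log scale), in bins of the barcode's UMIs named by their lower edge, for 3 gates with at least 20 barcodes per library and bin. Bars are exact conditional binomial 95% intervals. The macrophage ratio is 1.28 in the shallowest bin and 0.637 between 16000 and 32000 UMIs.

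Macrophage subsets, gated on further marker genes, also differed in direction. Cycling macrophages (738 and 256 barcodes) stood at 3505 CPM in Control and 2025 in Motolimod (0.578, 0.566 to 0.590), with 15 of 35 members lower and 0 higher, beside 6.84% and 9.36% of all genes. Those with Cd72 and Vcam1 (423 and 123) stood at 4093 and 2665 CPM (0.651), with 15 members lower beside 7.68% of all genes, and 0 higher beside 10.8%. Macrophages with Mmp12 (411 and 157) had a ratio of 0.639, with 9 members lower and 0 higher, beside 9.86% and 10.5% of all genes. Macrophages with Ass1 and MHC class II genes (1452 and 722) had a ratio of 0.742, with 2 members lower and 1 higher, beside 5.40% and 9.65% of all genes. Those with Lyve1 and Cd209 genes (159 and 56) stood at 0.813. Those with Cbr2 and Tppp3 (131 and 545) stood at 0.998, with 6 members higher and 0 lower, beside 16.4% and 11.5% of all genes. Macrophages with none of these markers (1342 and 2118) stood at 3987 and 5182 CPM (1.30, 1.29 to 1.31), with 23 members higher and 0 lower, beside 14.9% and 14.2% of all genes. They were 34.1% of the Control and 54.7% of the Motolimod macrophage gate. Each subset required UMIs of at least 2 or 3 different markers, in barcodes that were not thinned. The median macrophage had 15919 UMIs in Control and 6410.5 in Motolimod, and the part of depth in subset membership was not tested. Subsets could overlap, and 17.1% and 6.84% of the macrophage gate were in more than 1. Gpnmb and Cd36 macrophages had only 11 Control barcodes and are not compared. Among neutrophils, those with at least 20 UMIs of Ccl3 and Ccl4 per 10000 (347 and 2445 barcodes) had a module ratio of 0.960, with 5 members higher and 4 lower, beside 22.4% and 22.3% of all genes. The rest (230 and 442) were at 9523 and 13828 CPM (1.45, 1.41 to 1.49), with 18 of 34 members higher and 0 lower, beside 17.7% and 18.5% of all genes. T cells with cycling markers (82 and 48) had a ratio of 1.37. Of their 27 members tested, 17 were higher and 0 lower, beside 14.1% and 13.9% of all genes. After thinning, the median cycling T cell held 1 module UMI in Control and 0.5 in Motolimod, and 46.3% and 50% held 0. The variance was 1.52 and 3.24 times the mean. The higher sum was therefore not a higher level in the median barcode. The other T cells (308 and 425) had a ratio of 0.920, with 6 of 34 higher and 1 lower, beside 14.8% and 7.30%.

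The genes upstream of the members were followed with lists of ligands, receptors, induction factors and inhibitors. Of 21 interferon ligand genes, few had any UMI. Ifnb1 had 241 UMIs in 29 of 7484 Control barcodes and 33 UMIs in 18 of 9314 Motolimod barcodes. A single Control barcode of the monocyte gate held 78 of the 241, together with all 40 UMIs of Ifna1 and all 5 of Ifna4 in that library. Its module level was 279 UMIs per 10000, above 98.8% of the Control monocyte gate, whose median was 65.7. The next 2 Control barcodes in Ifnb1, both macrophages with 30 and 27 UMIs, had module levels of 264 and 238 per 10000, above 99.9% and 99.7% of a gate with a median of 34.8. Not all barcodes with Ifnb1 were high in the module. The Motolimod macrophage with the most Ifnb1 (6 UMIs) stood at 90.1 per 10000, above 86.4% of its gate, and a Motolimod T cell with 4 Ifnb1 UMIs at 16.8, above 54.1%. These barcodes were picked out after their values were seen. The Ifnb1 ratio of 0.380 in macrophages (121 and 23 UMIs, 19 and 12 barcodes) and of 0.0377 in monocytes (78 and 2 UMIs) therefore rests on few barcodes, and in monocytes the Control side is 1 barcode. Ifng, the type II interferon, had 1051 UMIs in 167 Control T cells and 1423 in 199 Motolimod T cells, at 264 and 435 CPM (1.65, 1.52 to 1.78).

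Receptor and kinase genes were mostly within the limit. In macrophages 0 of 10 tested were called in either direction, with Jak2 at a ratio of 1.44 (1.34 to 1.56). In monocytes, T cells, dendritic cells and epithelial cells 0 of 10 tested were called as well. Of all genes, 13.2% were higher and 10.5% lower in macrophages, and 12.9% and 6.66% in monocytes. The shares were 15.2% and 8.66% in T cells, 12.1% and 10.0% in dendritic cells and 6.31% and 7.75% in epithelial cells. Among 10 genes such shares stand for few calls, so the counts of 0 are not read as a result. In neutrophils, beside 17.7% and 27.4% of all genes, 1 of 11 was higher, Ifnlr1 (4 and 60 UMIs, 4.02, 1.49 to 15.2), and 1 lower, Ifngr1, a chain of the type II receptor, at 169 and 90.4 CPM (0.536).

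Of the factors that induce interferon, Ikbke, a kinase that activates IRF3 and IRF7, was higher in 4 gates. It was at 29.9 and 53.1 CPM in macrophages (1.78, 1.66 to 1.90), 37.3 and 71.3 in monocytes (1.91), 18.2 and 94.2 in neutrophils (5.16, 3.68 to 7.48) and 14.8 and 26.6 in T cells (1.79). In macrophages it was the only one of 12 called, a count no larger than the 13.2% of all genes called higher there would give. Neutrophils, with 17.7% of all genes higher and 27.4% lower, had 5 of 12 higher, among them Irf3 at 16.2 and 32.8 CPM (2.03), and 2 lower, namely Irf8 at 106 and 32.6 CPM (0.308) and Mavs from 8 and 12 UMIs (0.402). Cgas, the cytosolic DNA sensor, was at 7.03 and 15.3 CPM in monocytes (2.18) and at 11.3 and 4.59 CPM in T cells (0.405). Among negative regulators, 1 of 12 was higher in macrophages, again no more than the share of all genes, namely the nucleotide hydrolase Samhd1 at 308 and 464 CPM (1.51, 1.48 to 1.54). In neutrophils Socs1 was at 131 and 235 CPM (1.79) and Adar at 32.3 and 54.5 (1.69), and Socs3 was at 567 and 264 (0.466).

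Interferon-stimulated genes outside the 35 were 41 symbols, of which 38 were listed. The shares of all genes called higher and lower, given for each gate above, are set beside these counts. In macrophages 11 of 37 tested were higher and 0 lower, beside 13.2% and 10.5% of all genes, with a median log2 ratio of 0.36. The largest ratios were of Ifit1bl1 (3.79 and 8.56 CPM, 2.26), Trim30b (2.23), Samd9l (20.5 and 41.2 CPM, 2.01) and Trim30d (2.00). T cells had 11 of 35 higher and 1 lower, beside 15.2% and 8.66% of all genes, with Samd9l at 21.1 and 51.4 CPM (2.43) and Epsti1 at 144 and 274 (1.90). Dendritic cells had 11 of 34 higher and 1 lower, beside 12.1% and 10.0%, with Ifi27l2a at 955 and 2019 CPM (2.11, 2.01 to 2.23). Monocytes had 5 of 36 higher and 0 lower, beside 12.9% and 6.66%, so the higher count is near the share of all genes. Epithelial cells had 0 of 34 higher and 4 lower, beside 6.31% and 7.75%. Neutrophils had 6 of 37 higher and 12 lower, near the 17.7% and 27.4% of all genes. The largest differences there were of Ms4a4c (189 and 45.4 CPM, 0.241), Ifi205 (0.299), Phf11b (0.344) and Phf11d (0.407), all lower. In Control monocytes these 4 genes were at 779, 243, 180 and 117 CPM. Macrophage markers in the neutrophil gate were at 980 CPM in Control and 453 in Motolimod. The part of RNA from other cells in these lower values was not tested.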

How the data were processed

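Single cells of CD45-enriched mouse tumours were sequenced with 10x 3′ v3 chemistry, with 1 Control and 1 Motolimod library. The deposited counts are UMIs per gene and barcode, made by the authors with Cell Ranger on mm10. The version is 7.1.0 per the file headers and 5.0.1 per the submitters' processing notes, and whether intron reads were counted is not given in the sources used here. Both count matrices hold barcodes that had passed the authors' cell calling.

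From these counts, barcodes were kept from 300 genes and 800 UMIs upward, unless over 10% of their UMIs were mitochondrial. Gates were set on the UMIs of marker lists per 10000 UMIs, with thresholds chosen after seeing the data. For example, macrophages needed 40 per 10000 from at least 3 markers, neutrophils 60 from 2 and T cells 10 from 2. No doublet caller was run, and barcodes with markers of more than 1 lineage were set aside. Counts were summed per gate and library and given per 1000000 UMIs (CPM) with exact Poisson 95% intervals, and ratios with exact conditional binomial intervals. Shares of barcodes have exact Clopper-Pearson intervals. No test across samples is possible with 1 library per group, so no p-value is given. A gene was called at 1.5-fold with at least 20 UMIs over both libraries, and a fold against a count of 0 used a floor of 3 counts. Barcodes were thinned at random (seed 1) to 1000 UMIs for the spread. The calls and intervals were checked on simulated gene sums drawn from a Poisson model, without spread between barcodes. That check cannot show how the intervals do where barcodes vary more, as they do here.

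Named members are, per gate, the 6 with the most UMIs and the 4 highest and 4 lowest ratios, and up to 4 genes of each pathway list with the largest ratio in either direction. Other members are named where a count or a contrast needs them, chosen after their values were seen. The members and lists were chosen with earlier results of these data known. Alternatives were another scaling, filters, gates, thinning depths and a 2-fold limit. Python 3.11.15, numpy 2.4.6, scipy 1.17.1, pandas 2.3.3 and matplotlib 3.10.9 were used.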

Additional observations from a re-analysis of the deposited data

Results flagged for a closer look

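For 9 members the ratio of Motolimod to Control passed 1.5-fold in opposite directions in different gates. The share of all genes that did so is not given, so the count of 9 is not read as a trait of the members. Whether the gates differ was not tested, since each gate has 1 library per group, and 8 of the 9 had their lower value in the epithelial gate, with 68 Motolimod barcodes. Ifi44 had ratios of 2.78 in macrophages, 3.85 in monocytes, 3.44 in T cells and 3.04 in dendritic cells, against 0.501 in neutrophils and 0.401 in epithelial cells. Ifi213 was at 0.373 in neutrophils and 1.72 in dendritic cells. Rsad2 was at 1.80 in macrophages, 1.75 in monocytes and 1.63 in neutrophils, against 0.556 in epithelial cells. Usp18 was at 1.54 in neutrophils, 2.49 in T cells and 1.62 in dendritic cells, against 0.293 in epithelial cells. Ifit3 was at 1.53 in T cells and 1.98 in dendritic cells, against 0.181 in epithelial cells. Irf9 was at 1.54 in neutrophils and 1.66 in T cells, against 0.548 in epithelial cells. Xaf1 was at 1.52 in neutrophils and 0.595 in epithelial cells. Oas1a and Oas1g were at 2.31 and 3.04 in dendritic cells and at 0.424 and 0.483 in epithelial cells.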

How the results depend on the processing

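Depth differed between the libraries, with medians of 14055 UMIs in Control and 3742.5 in Motolimod, and with 1 library per group leaving out a library gives no value. No paired analysis was possible because each group has a single library. The cause of the differences below was not tested. The module ratio by the mean over barcodes was 1.21 in macrophages, 1.01 in monocytes, 1.02 in neutrophils, 1.41 in dendritic cells and 0.657 in epithelial cells. With median-of-ratios scaling it was 1.00, 0.944, 1.17, 1.09 and 1.22 in macrophages, monocytes, neutrophils, T cells and dendritic cells. With mixed barcodes assigned it was 1.05 in macrophages, 1.11 in neutrophils, 1.21 in T cells and 1.35 in dendritic cells. With the gate threshold doubled it was 1.01 in macrophages, 1.08 in monocytes, 1.06 in neutrophils, 1.35 in T cells and 0.622 in epithelial cells. Thinned to 1000 UMIs it was 1.21, 1.03, 1.01, 1.08, 1.47 and 0.712 in macrophages, monocytes, neutrophils, T cells, dendritic cells and epithelial cells. Without the 3 most abundant members it was 1.32, 1.14, 1.24, 1.33 and 0.754 in macrophages, monocytes, neutrophils, T cells and epithelial cells. Under the stricter barcode filter the neutrophil ratio was 0.943. Within 4000 to 16000 UMIs per barcode, an alternative chosen after seeing the data, it was 1.14 in macrophages, 0.915 in neutrophils, 1.35 in T cells and 1.497 in dendritic cells.

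The percent of barcodes at 10 or more module UMIs was, for Control and Motolimod macrophages, 10.7 and 17.8 at 500 UMIs (5 or more), 5.79 and 12.3 at 2000 UMIs (20 or more), 1.36 and 4.43 without the 3 most abundant members and 9.86 and 16.7 within 4000 to 16000 UMIs. It was 6.55 in Control macrophages under the stricter filter and 12.9 in Motolimod macrophages with the threshold doubled. In neutrophils it was 17.3 and 21.9 without those 3 members, and in Motolimod neutrophils 39.3 at 500 UMIs and 29.7 under the stricter filter. Without those 3 members the order of the neutrophil libraries was therefore the other way round. The variance over the mean of neutrophils, 9.95 and 17.5, was 9.20 and 10.2 under the stricter filter and 9.23 and 9.36 within 4000 to 16000 UMIs. The filter kept 139 Control and 563 Motolimod neutrophils, and the window 117 and 262.

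At 2-fold, members higher were 5 in macrophages, 2 in monocytes, 0 in neutrophils, 6 in T cells and 9 in dendritic cells, and members lower were 0 in monocytes, 1 in neutrophils and 8 in epithelial cells. No share of all genes is given at 2-fold or under the other settings below. Whether these counts exceed that share cannot be read from them. With median-of-ratios scaling, neutrophils had 13 higher and 2 lower. Under the stricter filter neutrophils (139 Control and 563 Motolimod barcodes) had 2 higher. With the gate threshold doubled, T cells had 21 higher, epithelial cells 0 higher and monocytes 0 lower. Thinned to 1000 UMIs, 5 were higher in dendritic cells, and 4 were lower in monocytes, 2 in neutrophils, 1 in T cells, 1 in dendritic cells and 3 in epithelial cells. Within 4000 to 16000 UMIs, 1 was higher in neutrophils, 20 in T cells and 3 in epithelial cells, and 1 was lower in dendritic cells and 2 in epithelial cells. The epithelial counts rest on 39 Control and 3 Motolimod barcodes in that window. Among single named members, Ifi44 in T cells turned to 0.827 when thinned, and 31 of 50 named values moved under thinning, 30 within 4000 to 16000 UMIs and 6 under the stricter filter.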
